A study of Mus musculus with 4 samples.

Results

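The results below describe the Argonaute clusters that lie on miRNA genes in 2 kinds of mouse cell, embryonic stem cells (ESCs) and C2C12 myotubes. A cluster is a stretch of RNA, called by the authors, that was covered by crosslinked reads. Members were all clusters whose annotation class was miRNA, plus the cluster on A430104N18Rik, the noncoding host gene of miR-142. They came to 58 of 3548 clusters, 34 in ESCs and 24 in myotubes, at 51 of 1707 genes with a cluster.

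Both libraries were made by PAR-CLIP, in which ultraviolet light links a photoactivatable nucleoside in the RNA to the protein that holds it, and the linked base is later read as a T-to-C conversion. The study used it to find RNAs bound by Argonaute in ESCs. ESCs (passages 8 to 15, grown with leukemia inhibitory factor) carried a transgene for HA-Flag-AGO2, which doxycycline at 2.5 ug/ml switched on for 15 h, and the tagged protein was pulled down with the FLAG-M2 antibody. C2C12 is a mouse myoblast line that fuses into muscle fibres. Its myotubes (passages 4 to 8, day 2, in horse serum with insulin, transferrin and selenium) carried no transgene in the labels, and their own Argonaute was pulled down with an affinity peptide for the whole family. Cells of both kinds were irradiated at 312 nm for 5 min and fractionated, and the cytoplasmic libraries were used here. Lysates were cut with RNase T1, which cleaves after G. There was 1 library per cell type, so no difference below has a replicate check. The cell type, the Argonaute source and the capture method cannot be told apart. All intervals are exact 95% intervals that cover counting error only.

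Argonaute proteins hold a miRNA as a short guide and use its 5′ part, the seed at bases 2 to 8, to pair with target RNAs, most often in 3′UTRs. A miRNA gene gives a folded hairpin, from whose arms the mature strands, called 5p and 3p, are cut. Usually Argonaute keeps a preferred strand and the other is degraded, so a cluster on a hairpin arm shows which strand was bound and crosslinked.

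The mature strands under the clusters with the most reads are shown first, because these few sequences carry most of the signal. Mature sequences are from RefSeq (GRCm38.p6), with the seed in capitals. The ESC leads were 2 miRNAs of the 3p arm and Mir135b, for which the cluster sequence of the table is given in lower case as read in each library.
miR-142a-3p: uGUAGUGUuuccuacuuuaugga
miR-27b-3p: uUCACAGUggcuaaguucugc
Mir135b, ESC cluster: cctatggcttttcattcctatgtga
Mir135b, myotube cluster: tatggcttttcattcctatg
The myotube leads were all 5p strands.
miR-322-5p: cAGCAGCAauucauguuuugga
miR-335-5p: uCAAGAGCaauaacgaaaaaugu
let-7g-5p: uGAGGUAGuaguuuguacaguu
miR-206-5p: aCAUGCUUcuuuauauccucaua

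Clusters at miRNA genes took a large share of the ESC reads and a small share of the myotube reads. In ESCs they held 66765 of 214955 cluster reads, which is 31.1% (30.9 to 31.3). In myotubes they held 4153 of 135023 reads, or 3.08% (2.98 to 3.17). The difference lay in very few genes. A430104N18Rik alone gave 43654 reads, 65.4% of the ESC reads at miRNA genes, and with Mir135b it gave 95.9%. The remaining 32 ESC clusters held 2708 reads, 1.26% of the library, against 3.08% for the 24 myotube clusters. Counted by distinct read sequences, which do not grow with repeated reads, the shares were close, with 420 of 23953 sequences in ESCs (1.75%) and 285 of 15696 in myotubes (1.82%). The median read number of a cluster at a miRNA gene was 34.5 (ESCs) and 42.5 (myotubes), against 9 and 11 for all other clusters. The median number of reads behind each distinct sequence was 4.44 and 5.10, against 2.33 and 2.67 elsewhere. Clusters had the size of a mature miRNA, with 32 of the 34 ESC and 24 of the 24 myotube clusters 20 to 25 nt long, as were 85.0% and 68.2% of the other clusters. The smallest clusters of any class had 4 ESC reads and 5 myotube reads, and every cluster had at least 2 conversion positions, so a gene with no cluster may have had reads below a calling limit or none, which the tables do not tell.

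**Figure D1:**
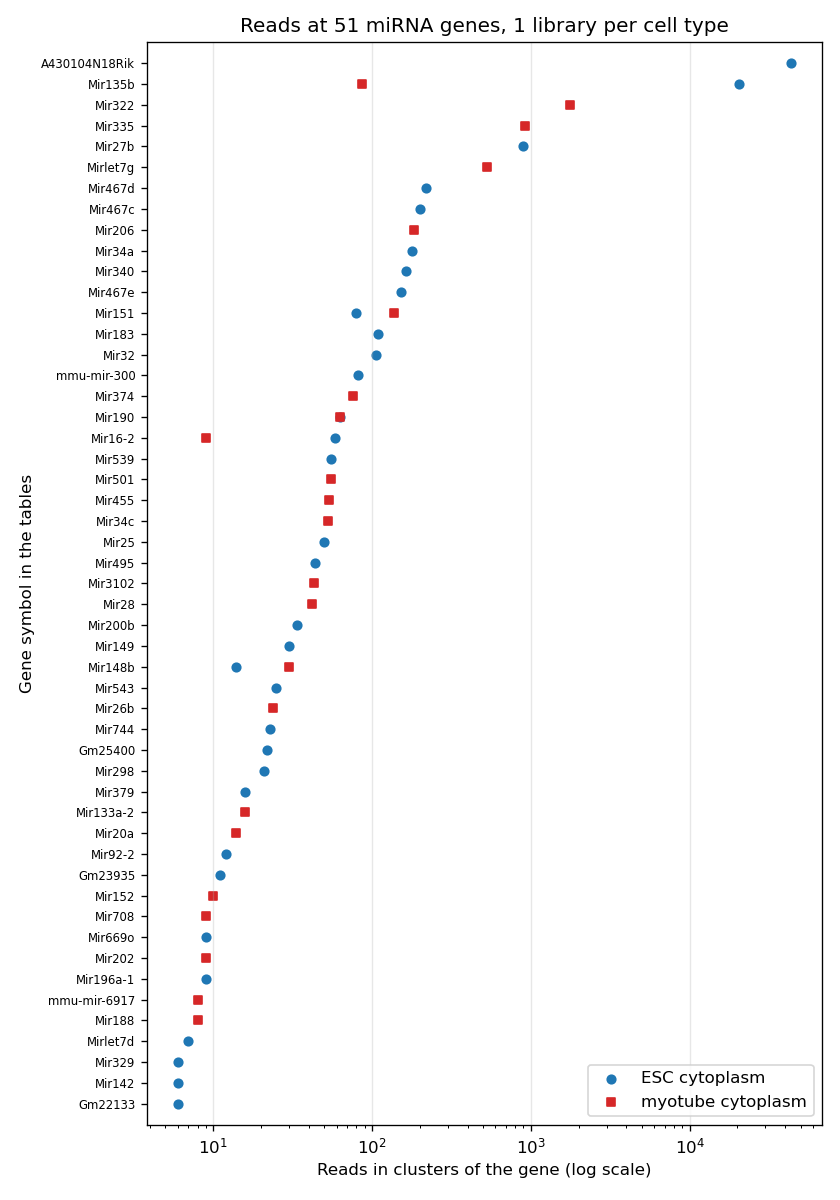
Reads in the clusters of each of the 51 miRNA genes (log axis), with ESC cytoplasm as blue circles and myotube cytoplasm as red squares, 1 library each. Only 5 genes carry both marks, with those of Mir190 on top of each other at 63 reads, and the ESC points of A430104N18Rik and Mir135b lie above those of all other genes.

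In ESCs the leading cluster was that of miR-142a-3p, a miRNA known from blood cells. It had 43654 reads with 80 distinct sequences at chr11:87756903-87756925 on the plus strand (mm10), in the noncoding gene A430104N18Rik. It was 20.3% (20.1 to 20.5) of all cluster reads, and the ends of the cluster were those of the RefSeq mature strand to the base. Single reads need not reach that end, since 99.8% were listed as ending in G and the cluster ends in A. The table listed no cluster on the 5p arm of the plus strand. It did list a cluster of 6 reads under Mir142 at chr11:87756867-87756886, but on the minus strand, where RefSeq has the separate hairpin Mir142b. This cluster lay opposite miR-142a-5p, over 20 nt. The hairpins of both strands are shown with the cluster in capitals, because the symbol alone would place the minus-strand reads on the wrong miRNA.
Mir142, plus strand: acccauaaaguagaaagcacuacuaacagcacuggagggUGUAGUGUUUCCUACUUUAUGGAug
Mir142b, minus strand: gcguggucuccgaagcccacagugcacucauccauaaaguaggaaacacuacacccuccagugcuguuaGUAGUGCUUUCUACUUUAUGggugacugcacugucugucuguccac
The capitals of Mir142 end at position 62 of 64, on the 3p arm, and those of Mir142b run from position 70 to 89 of 115.

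Mir135b followed with 20403 reads and 68 distinct sequences at chr1:132198101-132198125, on the 5p arm of its hairpin and with 9.49% (9.37 to 9.62) of ESC reads. Mir27b, a miRNA gene known from vessels and muscle, had 891 reads (0.415%, 0.388 to 0.443), and its cluster matched miR-27b-3p at both ends. Of its reads, 93.6% were listed as ending in G, although that cluster ends in C. Below these leads, 7 ESC genes had 106 to 219 reads. Among them were Mir34a, a target gene of p53, with 180 reads, and Mir340 with 165 reads. Mir183, known from sensory organs, had 110 reads and Mir32 had 106. The other 3, Mir467c, Mir467d and Mir467e, are described with their genomic cluster.

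In myotubes the reads were spread more evenly. Mir322, whose human counterpart is MIR424 and which is known to rise in muscle differentiation, had 1776 reads with 49 distinct sequences at chrX:53054306-53054327. Mir335, in the imprinted gene Mest, had 914 reads with 38 distinct sequences. Mirlet7g, of the let-7 family that accumulates as cells differentiate, had 531 reads with 35 distinct sequences. Together these 3 genes held 77.6% of the myotube reads at miRNA genes. None of them had an ESC cluster. Mir206, a gene of skeletal muscle, had 184 reads at chr1:20679017-20679040. These lay on the 5p arm, whereas the strand known to act in muscle is miR-206-3p. In its hairpin the cluster, in capitals, covers positions 8 to 31 of 73.
Mir206: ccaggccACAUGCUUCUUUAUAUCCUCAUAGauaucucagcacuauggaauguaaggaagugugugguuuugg
Mir151 was the fifth myotube gene above 100 reads, with 138 reads.

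A cluster in both tables was found for 5 of 51 miRNA genes, which is 15.2% of the ESC genes and 21.7% of the myotube genes. As a share of the genes in either table it was 9.80%, beside 13.9% of all genes with a cluster. Clusters in ESCs alone were found for 28 genes and in myotubes alone for 18. Of the 5 shared genes, 4 differed by more than 2-fold in their share of the library's reads, 2 higher in each cell type. Among all 237 shared genes 53.6% did so, and the median log2 ratio over these was -0.04. Mir135b had 20403 ESC reads and 87 myotube reads, a log2 ratio of read shares, ESC over myotube, of 7.20 (6.90 to 7.52). Over distinct sequences, 68 and 9, it was 2.31. Mir16-2 had 59 and 9 reads, a log2 ratio of 2.04 (1.02 to 3.24). Its direction turned, to -1.29, when reads were divided by the total at miRNA genes in place of the library total. Mir190 had 63 reads in each table, which gave a log2 ratio of -0.67 (-1.20 to -0.14). Mir151, in an intron of Ptk2, had 79 and 138 reads, a log2 ratio of -1.48 (-1.89 to -1.07). Mir148b, in Copz1, had 14 and 30 reads, a log2 ratio of -1.77 (-2.80 to -0.81).

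The shared genes were read from the same place in both cell types, and mainly the ends differed. The Mir148b clusters had identical ends. Those of Mir151 and Mir190 had the same 5′ end, and the myotube clusters were longer by 2 and 3 nt at the 3′ end. For Mir135b the myotube cluster began 2 nt later and ended 3 nt earlier, as in the sequences above. Mir16-2 differed most. Its ESC cluster on the 3p arm was 43 nt long and reached 20 nt upstream into the loop, while the myotube cluster was 23 nt long and began where miR-16-2-3p begins. Both ended at the same base. The position listed as the mode of the ESC cluster lay in the loop, before the first base of miR-16-2-3p. That of the myotube cluster lay at base 12 of the strand. In ESCs a separate cluster of 24 reads lay on the 5p arm. The hairpin is shown with, in capitals, the ESC cluster that runs through the loop.
Mir16-2, ESC 3p cluster: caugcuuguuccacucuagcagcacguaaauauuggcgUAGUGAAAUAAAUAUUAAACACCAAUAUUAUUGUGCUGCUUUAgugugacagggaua
Mir16-2, myotube 3p cluster: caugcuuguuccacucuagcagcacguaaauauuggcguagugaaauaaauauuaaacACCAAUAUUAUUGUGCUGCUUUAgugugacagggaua

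Members that lie near each other in the genome were found mainly in the ESC table, on chromosomes 2 and 12. The Mir467 genes lie in an array within Sfmbt2, a Polycomb-related gene whose large intronic miRNA cluster is known to be active in ESCs and placenta. Mir467c had 201 reads, Mir467e 153, Mir467d 219 and Mir669o 9, in all 582 ESC reads and no myotube cluster. Mir467e, Mir467d and Mir669o followed each other within 10 kb, and Mir467c lay 31.8 kb before Mir467e. RefSeq mature entries were not matched for these genes, so their table sequences are given.
Mir467c: ataagtgcgtgcatgtatatg
Mir467d: taagtgcgcgcatgtatatg
Mir467e: ataagtgtgagcatgtatatgt
Mir669o: tagttgtgtgtgcatgtttatg
Aligned without gaps, the Mir467c and Mir467d clusters differed at 1 of 20 bases, Mir467d and Mir467e at 2 of 20, and Mir467c and Mir467e at 2 of 21. Mir669o differed from them at 5 or 6 bases. Reads of such near-identical genes can be shared out by the alignment, which the sources do not describe, so the split of reads among the 3 Mir467 genes is uncertain. Mir467c, Mir467d and Mir467e were also the least converted of the clusters at miRNA genes, although other ESC clusters went down to 2.93%. T-to-C conversion was found in 6.54% of the Mir467e reads (3.18 to 11.7), 7.96% of the Mir467c reads (4.62 to 12.6) and 11.0% of the Mir467d reads (7.15 to 15.9). Mir669o, with 9 reads, had 44.4% (13.7 to 78.8).

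The other array was the imprinted region between Dlk1 and Dio3 on chromosome 12, from which the maternal chromosome expresses many miRNAs. Of 58 RefSeq hairpins there, 7 had an ESC cluster and none a myotube cluster, and the 7 held 250 reads. Over all 1005 RefSeq hairpin genes, 2.59% had an ESC cluster and 2.09% a myotube cluster. At the latter share a list of 58 can easily have none. On the plus strand, Mir379 had 16 reads, Mir329 6, Mir543 25, Mir495 44, mmu-mir-300 82 and Mir539 55, over 19.1 kb. Gm25400, with 22 reads, lay on the minus strand over miR-299b-5p, opposite miR-299a-3p, with which it overlapped by 19 nt. Mir543 and Mir495 are related, and their clusters differed at 4 of 22 bases. Conversion in the region had a median of 52.0% and ran from 20% for Mir539 to 83.3% for Mir329. In myotubes the only neighbours were on the X chromosome in Clcn5, where Mir501 had 55 reads and Mir188 had 8 at a distance of 6.73 kb.

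**Figure D2:**
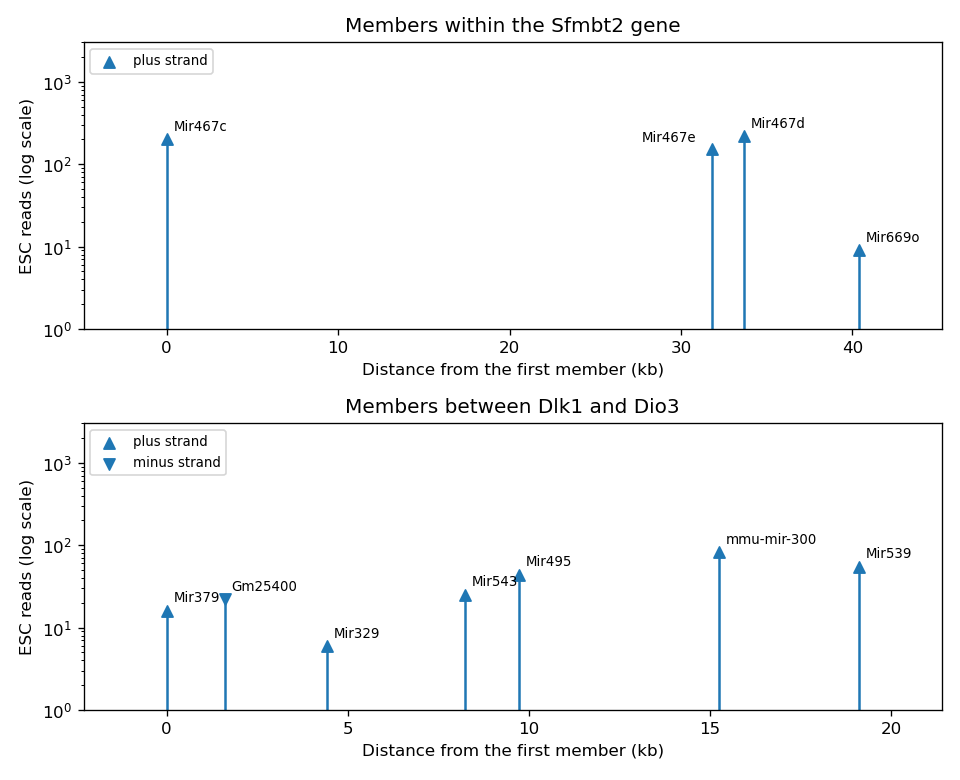
ESC reads (log axis) of each cluster against its distance in kb from the first cluster of the region, for the members in Sfmbt2 and those between Dlk1 and Dio3, with upward triangles for the plus strand and downward for the minus strand. In the former, Mir467c, Mir467e and Mir467d stand at 153 to 219 reads, and in the latter 7 genes spread over 19.1 kb at 6 to 82 reads.

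Families known from these cell types were counted beside a background of 2.59% of 1005 RefSeq hairpin genes with an ESC cluster and 2.09% with a myotube cluster. The background counts clusters placed on a RefSeq entry, whereas the lists go by gene symbol, so the rules differ. Mir133a-2, for example, had no matched entry. Of 14 genes of the miR-290 and miR-302 clusters, of which the former is known as the most abundant of mouse ESCs, none had a cluster in either table. Of the messages that mark the cells, Sox2 and Nanog had 137 and 117 ESC reads and no myotube cluster, and Myog had 49 myotube reads and no ESC cluster. Mylpf, a muscle myosin light chain, had 110 myotube reads and also 12 ESC reads. Of 15 genes of miR-17-92 and its paralogue clusters, which promote proliferation, Mir25 (50 reads) and Mir92-2 (12) had an ESC cluster and Mir20a (14) a myotube cluster. Of 12 let-7 genes, Mirlet7d had 7 ESC reads and Mirlet7g its 531 myotube reads. Of 11 muscle genes that RefSeq names, Mir206 and Mir133a-2 had a myotube cluster, with 184 and 16 reads, and none had an ESC cluster. Among 6 genes of the Mir23-27-24 clusters Mir27b had an ESC cluster. Among 5 named genes of the Mir322 cluster only Mir322 itself had one, in myotubes, and among 7 of the Mir15 and Mir16 family Mir16-2 had one in both.

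Markers of other cell types were counted in the same way, although a list this short would often have no cluster at that background. None of 6 named neuronal miRNA genes, the liver gene Mir122 or the islet gene Mir375 had a cluster. Of 6 genes of blood cells, Mir142 had the 6 minus-strand ESC reads given above and the other 5 had none, while its host gene A430104N18Rik had the 43654 ESC reads. Of 6 epithelial genes Mir200b, a repressor of Zeb1 and Zeb2, had 34 ESC reads. Blood-cell messages were not examined here, and the part of blood cells in the miR-142 reads was not tested.

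The remaining ESC genes were Mir149 with 30 reads, Mir744 (in Map2k4) with 23, Mir298 with 21, Gm23935 with 11, Mir196a-1 of the Hox clusters with 9 and Gm22133 with 6. Gm23935 and Gm22133 had no matched RefSeq miRNA, and the Gm23935 cluster was 35 nt long. The remaining myotube genes were Mir374 with 62 and 14 reads, Mir455 with 54, Mir34c with 53, Mir3102 with 43, Mir28 with 42, Mir26b with 24, Mir152 with 10, Mir202 and Mir708 with 9 each, and mmu-mir-6917 with 8. Mir374 lies in Ftx, a noncoding gene of the X inactivation centre. Its 2 clusters lay on both arms of the hairpin of miR-374b, 62 reads on the 5p strand and 14 on the 3p arm, which makes it with Mir16-2 in ESCs a gene read from both arms. The cluster of 14 reads covered only 15 nt of miR-374b-3p. It began 7 nt before that strand and ended 7 nt short of its end. The opposite strand holds Mir374c.

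Conversion was lower at miRNA genes than elsewhere. The median cluster had 39.6% of its reads converted in ESCs and 50.0% in myotubes, against 80.0% and 83.3% for all other clusters. Among the other clusters the share was lower where reads were more, so the medians were also taken above a minimum of reads, which does not match the depths. Among clusters with at least 10 reads the medians were 37.1% against 64.7% in ESCs and 50.0% against 68.2% in myotubes. Among those with at least 100 reads they were 27.3% over 10 miRNA clusters against 55.1% over 167 others in ESCs, and 29.6% over 5 against 59.9% over 146 in myotubes. Clusters on snoRNAs, also short structured RNAs, had 58.9% over 13 ESC clusters and 57.0% over 6 myotube clusters at that depth. Fewer than 50% of reads were converted in 20 of the 34 clusters of ESCs and 9 of the 24 of myotubes, against 316 of 2625 and 93 of 865 other clusters. The ESC leads had 20.3% (19.9 to 20.6) for A430104N18Rik, 38.8% (38.1 to 39.4) for Mir135b and 24.9% (22.1 to 27.9) for Mir27b. The myotube leads had 22.5% (20.6 to 24.5) for Mir322, 38.6% (35.5 to 41.9) for Mir335, 29.6% (25.7 to 33.6) for Mirlet7g and 57.1% (49.6 to 64.3) for Mir206. Genes in both tables allow clusters of the same gene to be compared. Mir135b had 38.8% in ESCs and 36.8% (26.7 to 47.8) in myotubes. Mir151 had 39.2% (28.4 to 50.9) and 15.9% (10.3 to 23.1), and these intervals do not overlap. They count reads, however, which came from only 4 and 10 distinct sequences, and the clusters were 20 and 22 nt long. The intervals of Mir190 (74.6% and 63.5%), Mir148b (71.4% and 40.0%) and Mir16-2 on the 3p arm (82.9% and 100%) do overlap. For Mir16-2 the clusters were 43 and 23 nt long, so the reads compared are not from the same stretch.

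**Figure D3:**
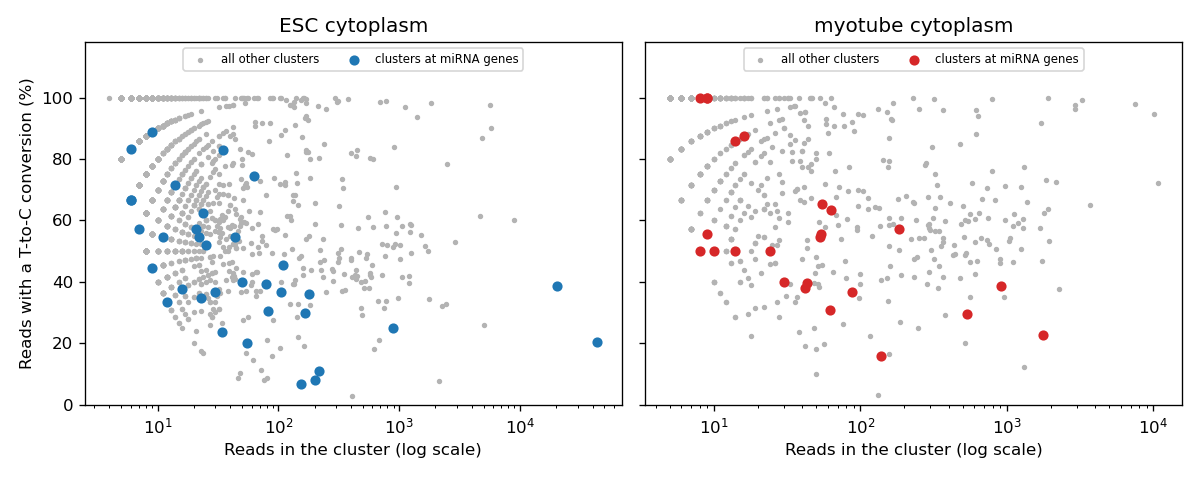
Share of reads with a T-to-C conversion against the reads of the cluster (log axis) in each library, with clusters at miRNA genes in colour over all other clusters in grey. The 10 ESC and 5 myotube points with at least 100 reads all lie below the medians of the other clusters of that depth, 55.1% and 59.9%.

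Most clusters coincided with an annotated mature strand. A cluster was placed on a mature strand when at least 15 nt of it lay inside. This held for 24 of 34 ESC clusters, 12 on 5p and 12 on 3p strands, and for 20 of 24 myotube clusters, 14 on 5p and 6 on 3p. Including Mir135b and others placed on a hairpin arm, the reads divided into 21079 on 5p and 45008 on 3p in ESCs, and 3857 and 142 in myotubes. Without A430104N18Rik the ESC reads were 21079 on 5p and 1354 on 3p. Of the former, 20403 were from Mir135b, placed by its hairpin only. The lead of the 5p arm in ESCs then rested on that gene alone, and the other ESC clusters had more reads on 3p. That lead of 3p in turn rested on Mir27b, which gave 891 of the 1354 reads. Another 3 ESC clusters (Mir135b, Mir539 and Mir142) and 2 myotube clusters (Mir135b and Mir34c) lay on a RefSeq hairpin without a matched mature strand. No entry was matched for 7 ESC clusters (Mir467c, Mir467d, Mir467e, Mir669o, Mir151, Gm23935 and Gm22133) or for 2 in myotubes (Mir151 and Mir133a-2). Several clusters lay on a strand that is usually the minor product of its hairpin. Examples were miR-340-3p, miR-300-5p, miR-329-5p, miR-148b-5p, miR-16-2-3p and let-7d-3p in ESCs, and miR-206-5p, miR-148b-5p, miR-152-5p, miR-20a-3p and miR-16-2-3p in myotubes. This is not a full list, and the usual strand is general knowledge that was not measured here. The ESC cluster on miR-16-2-3p also ran through the loop, where its listed mode lay. Mir148b and Mir152 are related, and their 5p clusters differed at 4 of 21 bases.

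The 5′ ends were sharp and the 3′ ends were not. Ends here are those of clusters, not of single reads. The cluster began at the first base of the mature strand in 19 of 24 clusters of ESCs and 16 of 20 of myotubes. The 3′ end matched in 6 and 5. It fell short in 12 ESC clusters, by at most 3 nt, and 9 of these ended in G, the base after which RNase T1 cuts. It fell short in 6 myotube clusters, 4 of which ended in G. Of clusters of any class, 73.9% ended in G in ESCs and 71.3% in myotubes. Among all clusters at miRNA genes, short ones included, fewer did. In ESCs these were 10 of 21 on the plus strand and 6 of 13 on the minus strand. In myotubes they were 7 of 13 and 3 of 11. The part of RNase T1 in the short ends was not tested. The 3′ end ran over in 6 ESC clusters, by 1 nt in each, and in 9 myotube clusters, by 1 nt in 8 of them. The whole seed lay inside all 24 ESC clusters and 18 of 20 in myotubes, the exceptions being Mir501, which began 4 nt into the mature strand, and Mir3102, which began 3 nt in. Every mature strand under a cluster had at least 2 U, while 46 of 1674 distinct RefSeq mature sequences (2.75%) had fewer and could not have met the limit of 2 conversion positions.

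**Figure D4:**
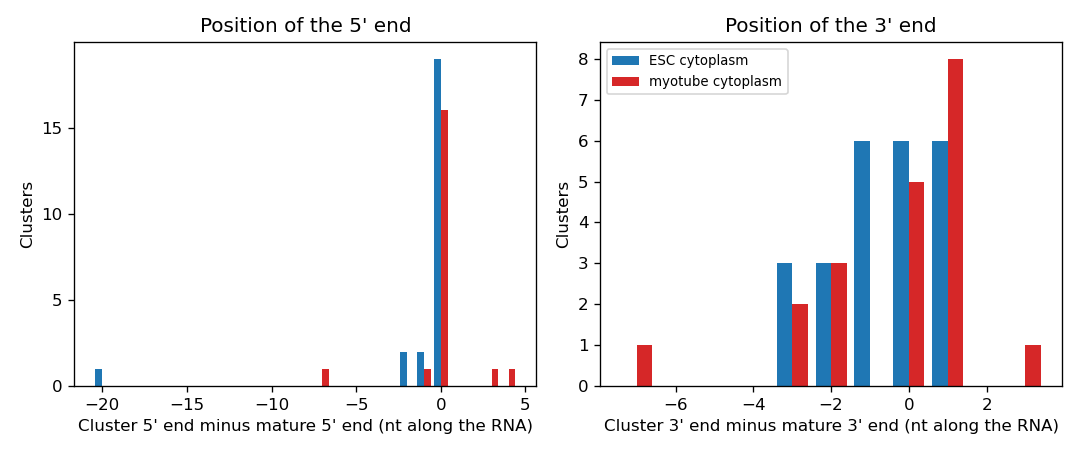
Number of clusters by the distance in nt of the cluster's 5′ end and 3′ end from those of the annotated mature miRNA, along the RNA, for 24 ESC clusters (blue) and 20 myotube clusters (red). The 5′ ends pile up at 0, with 19 and 16 clusters, whereas the 3′ ends spread mostly from -3 to 1.

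Grouped by seed, the 41 mature strands had 37 seeds, and 3 seeds were shared. The members of each group are shown with the seed in capitals, because a shared seed means the same 7-nt target sites. AUUGCAC was the seed of 3 ESC miRNAs, miR-32-5p with 106 reads, miR-25-3p with 50 and miR-92a-3p with 12, from 3 chromosomes.
miR-32-5p: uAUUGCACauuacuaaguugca
miR-25-3p: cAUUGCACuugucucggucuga
miR-92a-3p: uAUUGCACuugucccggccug
AGCAGCA was the seed of miR-16-5p, with 24 ESC reads, and of miR-322-5p, with 1776 myotube reads, so this seed was read in both libraries from different genes.
miR-16-5p: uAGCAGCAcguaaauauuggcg
AGGAGCU was the seed of miR-28a-5p, with 42 myotube reads, and of miR-708-5p, with 9. The Mir151 clusters held the same letters from base 4 and shared a run of 16 nt with that of Mir28.
miR-28a-5p: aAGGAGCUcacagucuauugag
miR-708-5p: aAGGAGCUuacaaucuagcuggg
Mir151, myotube cluster: tcgaggagctcacagtctagta
The Mir34c cluster of myotubes, with 53 reads, held the seed letters of miR-34a-5p, which had 180 ESC reads, at its base 2. These related genes thus appeared in different libraries.
miR-34a-5p: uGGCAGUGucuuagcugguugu
Mir34c, myotube cluster: aggcagtgtagttagctgattgc
An identical mature sequence is encoded at another place for 2 of the 41 strands, miR-16-5p and miR-92a-3p, so these reads cannot be assigned to a gene with certainty. The share among all RefSeq mature sequences was 3.23%.

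Whether the sites of these miRNAs lay in the 3′UTR clusters of the same library was counted next, over 1325 ESC and 363 myotube clusters. A site was the 7-nt reverse complement of the seed, searched on the strand of the cluster only. Most of the 37 sites were rare, since 21 were in no ESC cluster and 28 in no myotube cluster. Among the 22 sites whose miRNA had an ESC cluster, ACACTAC, the site of miR-142a-3p, was in the most, with 11 of 1325 (0.830%, 0.415 to 1.48). It was in 2 of 614 ESC coding clusters (0.326%) and in 2 of 363 myotube 3′UTR clusters (0.551%, 0.0668 to 1.98), so the shares of the libraries overlapped. A lower share in coding clusters was not general. In ESCs the site of miR-300-5p was in 9 of 614 coding clusters (1.47%), against 0.679% of 3′UTR clusters. That of let-7g-5p was in 8 of 614 (1.30%), against 0.453%. Other sites were lower there, such as that of miR-32-5p, in 0 of 614 coding and 6 of 1325 3′UTR clusters. Genes with ACACTAC in ESC 3′UTR clusters included Dstn, Kat7, Kif5b, Ncl, Paics, Tnks and Wasl. Wasl and Kif5b encode regulators of actin assembly and of transport along microtubules, and Tnks encodes tankyrase. CTCTTCA, the site of miR-300-5p, was in 9 ESC clusters (0.679%, 0.311 to 1.29), but also in 6 myotube clusters (1.65%, 0.609 to 3.56) where that miRNA had no cluster. TGCTGCT, the site shared by miR-16-5p and miR-322-5p, was in 7 ESC clusters (0.528%, 0.213 to 1.09) and 5 myotube clusters (1.38%, 0.449 to 3.19), with Smad7, an inhibitor of TGF-beta signalling, in both. The other myotube genes with it were Rbms1, Rreb1, Vegfa and Zfhx4.

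Other miRNAs with many reads had few sites. ACTGTGA, the site of miR-27b-3p, was in 1 ESC 3′UTR cluster (0.0755%, 0.00191 to 0.42), although its miRNA had 891 ESC reads, and in 6 myotube clusters (1.65%, 0.609 to 3.56), where no cluster was called at Mir27b. Tnpo1 held it in both libraries. GCTCTTG, the site of miR-335-5p with 914 myotube reads, was in none of 363 myotube clusters, which allows a share of up to 0.826% by the limit of 3 counts and has an exact upper bound of 1.01%. AAGCATG, the site of miR-206-5p, was in none either. CTACCTC, the let-7 site, was in 3 myotube clusters (0.826%, 0.171 to 2.40), those of Gatm, Rdx and Taok1, and in 6 ESC clusters (0.453%, 0.166 to 0.983). GTGCAAT, the site of miR-32, miR-25 and miR-92a, was in 6 ESC clusters (0.453%, 0.166 to 0.983) in Ddc, Dnajb9, Klf2, Tob1, Usp28 and Zmat3, and in 1 myotube cluster, in Tob1 again. TATTATA, the site of miR-374b-5p, was in 5 ESC and 4 myotube clusters, with Gadd45a, a DNA damage response gene, in both. A site within a cluster is a match of letters, and a site just outside the cluster ends was not seen.

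**Figure D5:**
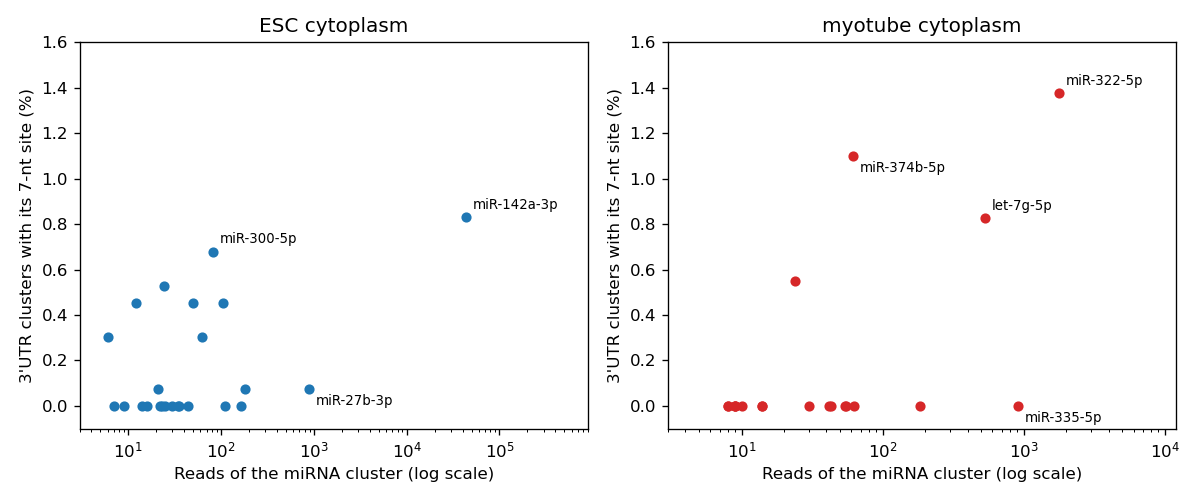
Share of 3′UTR clusters of the same library that hold the 7-nt site of each miRNA, against the reads of that miRNA's own cluster (log axis), for 24 ESC and 20 myotube clusters, each point being 1 miRNA cluster. miR-142a-3p stands highest in ESCs at 0.830% and miR-322-5p in myotubes at 1.38%, while miR-27b-3p and miR-335-5p are near or at 0 in spite of 891 and 914 reads.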

How the data were processed

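Members and gene lists were chosen with earlier results of these data known. The authors' cluster tables for the cytoplasmic libraries of 2 of 4 samples were used, and the nuclear samples were not analysed here. Their columns of reads, distinct sequences and conversions are whole-number counts for each cluster that the authors deposited, and the file headers name no normalization. The authors also deposited 2 columns of fractions, for reads with a conversion and reads that end in G. The converted share printed here was recomputed from the counts. The build was mm10 and reads were demultiplexed with bcl2fastq 2.17.1, per the submitters' processing notes. The aligner and the cluster caller were not given in the sources used here. The 4 blank lines of the ESC table and the 1 of the myotube table were dropped. Titles end in "(2)", whose meaning the labels do not give, and each title was taken as 1 library.

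Clusters were placed on RefSeq mature and hairpin entries (GRCm38.p6) by overlap of coordinates on the same strand, not by a match of sequence. Shares have Clopper-Pearson 95% intervals, and log2 ratios of read shares have exact conditional binomial 95% intervals (scipy 1.17.1, pandas 2.3.3, Python 3.11.15). They leave out all but counting error, and reads copied by PCR without molecular identifiers do not each stand for a molecule. With 1 library per group no test was made. Values are given for genes in both tables, with at least 100 reads or on a list, and the other members by reads. Neighbours were members within 10 kb on the same strand. The placement of clusters, with small shifts of their ends, and the interval of the log2 ratio were tested on simulated data. The other steps were not. The count of target sites in 3′UTR and coding clusters was added after the values of the members were seen. Alternatives were distinct sequences, a minimum of 10 reads, other denominators, leaving out the leading member and stricter placement.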

Additional observations from a re-analysis of the deposited data

Results flagged for a closer look

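Clusters outside the miRNA class of the tables were searched for overlap with mature miRNAs. A myotube cluster in an intron of 2010111I01Rik (chr13:63301213-63301234), with 14 reads and 7 distinct sequences, covered 22 nt of miR-24-1-5p from its first base. It lay 433 nt from the Mir27b cluster of ESCs, in the Mir23b, Mir27b and Mir24-1 gene cluster. An ESC cluster of the snoRNA class at Gm24148, with 42 reads, touched the RefSeq strand miR-3535 by 1 nt, which does not place it on that strand.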

How the results depend on the processing

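The ESC share of reads at miRNA genes, 31.1%, was 1.75% over distinct sequences, 32.5% over clusters with at least 10 reads, 42.9% without mitochondrial reads in the total, 13.5% without A430104N18Rik, 21.2% over clusters on a mature strand and, in an alternative chosen after seeing the data, 1.79% without A430104N18Rik and Mir135b. The myotube share, 3.08%, was 1.82% over distinct sequences, 6.19% without mitochondrial reads, 1.78% without Mir322 and 2.86% on mature strands. A mature strand lay wholly inside 12 clusters of each library, against 24 and 20 covered by at least 15 nt. The converted share was 26.3% in ESCs and 32.6% in myotubes when reads were pooled, and the ESC median was 37.1% over clusters with at least 10 reads. Other denominators change these shares by construction, and the cause of the remaining shifts was not tested. Divided by the reads at miRNA genes, Mir16-2 turned to a log2 ratio of -1.29, and the median of all shared genes moved from -0.04 to -3.38. That median was -0.59 without mitochondrial reads, -0.41 over clusters with at least 10 reads and 0.47 without the 2 ESC leads, the last again chosen after seeing the data. Mir135b was higher in ESCs under each of these denominators, with log2 ratios of 3.87 to 7.71, and over distinct sequences, with 2.31. The number of shared genes past 2-fold was 3 to 5. No paired analysis was possible because each group had 1 library. Depth limits the absent genes, which may have reads below a calling limit or none, and the clusters under 10 reads, of which there were 6 in ESCs and 5 in myotubes.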

Other observations

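The deposited share of reads ending in G could be read on the plus strand only. Over all clusters its median was 79.2% in ESCs and 78.0% in myotubes on the plus strand, and 0% on the minus strand in both, although 84.2% and 77.3% of the minus-strand clusters end in G. On the minus strand it was high where the first base of the cluster was G, with medians of 92.5% and 88.4%. Among plus-strand clusters at miRNA genes the median was 95.03% over 21 clusters in ESCs and 81.3% over 13 in myotubes. The miR-142a-3p cluster ends in A, yet 99.8% of its reads were listed as ending in G, as were 98.9% of the Mir135b reads in ESCs, whose cluster ends in A too. For Mir335 the share was 65.8% and for Mirlet7g 28.8%.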
